A study of Mus musculus with 6 samples.

Results

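RUNX1, RUNX2 and RUNX3 are the transcription factors of the RUNX family, and CBFB is the partner that they share. Their 4 genes were followed together with Runx1t1, Cbfa2t2 and Cbfa2t3, the genes of a corepressor family whose first member, RUNX1T1, is fused to RUNX1 in human leukaemia. These are 7 genes, of which all but Runx2 are among the 19938 measured genes that the array annotation names. Each gene was read from its brightest probe set (a group of probes for 1 transcript) by the mean over the 6 arrays, among probe sets that the array annotation pairs with 1 symbol alone. Every other such probe set was kept too, which gave 9 probe sets of 35556. Runx2 was the exception, since its probe set, 10451061, was identified from the study's own supplementary list of changed probe sets. That list was drawn up on the same contrast, so the values of Runx2 below are a description with no test. The other 6 were selected by gene family and by probe brightness, with results of these arrays known. RNA came from the thymus of mice aged 10 days on Affymetrix MoGene arrays. The 3 RUNX2/MYC arrays carried mice of the genotype CD2-Myc/CD2-Runx2 on a C57BL6/CBA background, in which control elements of CD2, a T cell gene, drive both transgenes in T cells. The 3 wild-type (WT) arrays carried mice of the same strain mix without a transgene, labelled C57/CBA. The labels call the 3 samples of each group biological replicates, and do not say whether any share a litter. Mice with only 1 of the transgenes were not analysed here, so the part of RUNX2 and the part of MYC in any difference cannot be told apart.

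RUNX proteins bind DNA through their Runt domain, and CBFB, which does not itself touch DNA, raises that binding and protects the RUNX protein from degradation. The same RUNX protein can activate or repress a gene, with coactivators such as the acetyltransferase EP300 or corepressors of the TLE family. In the thymus RUNX1 acts from the earliest T cell stages, where it helps to silence Cd4 in double-negative cells, and RUNX3 takes over that silencing in cells of the CD8 lineage. RUNX2 is best known as the master regulator of bone formation, and insertions of retroviruses beside Runx2 have marked it as an oncogene in mouse T cell lymphoma. RUNX1T1, CBFA2T2 and CBFA2T3 bind no DNA of their own in the manner of RUNX and act as scaffolds for histone deacetylases.

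Promoters of all 3 RUNX genes hold the letters that RUNX proteins bind, and these stretches are shown because they are shared by the members whose signals differ most in the results. RefSeq promoters of the build GRCm38.p6, from 250 bases before to 50 bases after a transcription start, were at hand for 6 of the 7 members, and Runx1, Runx3 and Cbfa2t3 had 2 each, of which the one farther upstream is called distal. The RUNX motif was searched as TGTGGT or TGCGGT and the E-box, the motif of MYC, as CACGTG, both on either strand. The Runx2 promoter on chromosome 17 held 4 RUNX motifs, the distal promoter of Runx1 on chromosome 16 and that of Runx3 on chromosome 4 held 2 each, and the distal promoter of Cbfa2t3 held 1. No RUNX motif lay in these windows of Cbfb, Cbfa2t2, or the proximal promoters of Runx1, Runx3 and Cbfa2t3. Of the 9 windows the distal one of Runx1 alone held an E-box. Capitals mark the motifs in the stretches below, each read 5′ to 3′ on the strand of its gene, and the first 3 lines align on the same pair of motifs.
Runx1 distal promoter, chr16:92826025-92826054, minus strand, bases 21 to 50 after the start: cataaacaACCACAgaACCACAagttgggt
Runx2 promoter, chr17:44814583-44814612, minus strand, bases 16 to 45 after the start: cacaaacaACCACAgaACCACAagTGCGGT
Runx3 distal promoter, chr4:135120503-135120532, plus strand, bases -142 to -113 from the start: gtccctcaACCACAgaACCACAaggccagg
Runx1 distal promoter, E-box, chr16:92826128-92826157, minus strand, bases -83 to -54 from the start: catcacttaagtCACGTGattggcaagagc
The paired motif of the first 3 lines stood in an identical run of 18 bases in all 3 genes, and of 22 bases in Runx1 and Runx2. A single RUNX motif is common, with 22.4% of the 32851 promoters in the table holding at least 1, and 7.15% held an E-box. The pair, searched on either strand as ACCACA, any base, an A and ACCACA again after the windows had been looked at, was in 5 promoters (0.0152%). Besides Runx1, Runx2 and Runx3 these were the promoter of Olfr24, an odorant receptor gene, and that of Gm16225, which overlaps the Runx3 window on the opposite strand and so holds the same copy. Such a match says only that the letters are there.

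**Figure D1:**
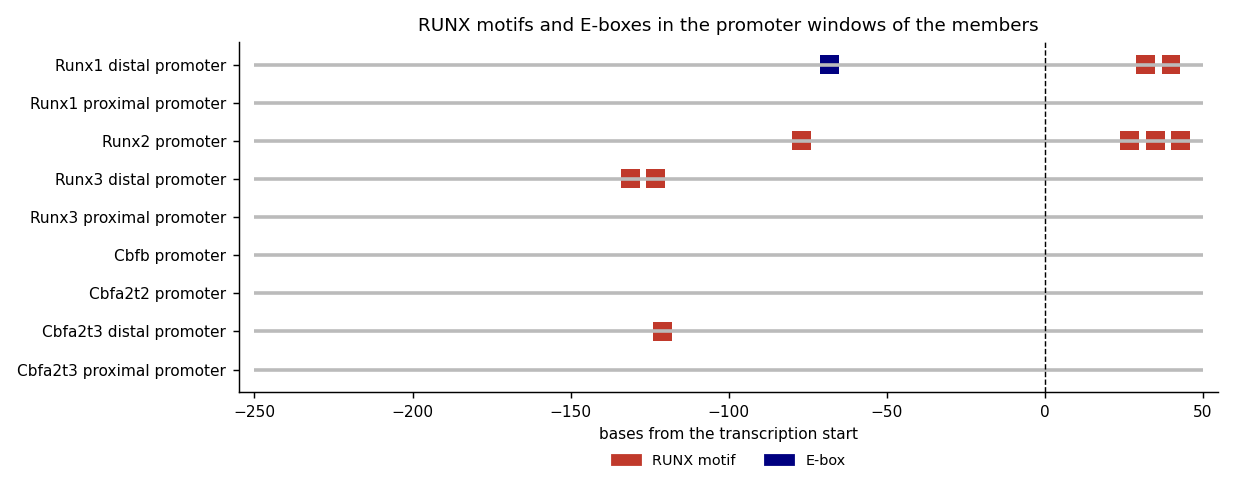
Positions of RUNX motifs (red, TGTGGT or TGCGGT on either strand) and E-boxes (blue, CACGTG) in the 9 promoter windows of 6 members, in bases from the transcription start, which is the dashed line. The pairs of adjacent motifs in Runx1, Runx2 and Runx3 are the stretches printed in the text, and the windows without a mark held neither motif.

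RMA log2 signals, as deposited, had array medians of 7.31 to 7.44 for RUNX2/MYC and 7.41 to 7.49 for WT. The 75th percentiles were 8.92 to 9.04 for RUNX2/MYC and 8.85 to 8.97 for WT. The lower the median of an array, the higher was its 75th percentile, so the arrays differed in the shape of their signals. The first principal component took up 60.5% of the variance, and on it RUNX2/MYC replicate 1 (-6.79) and WT replicate 3 (5.15) stood between the remaining arrays, which lay at 39.4 and 45.2 for RUNX2/MYC and at -45.9 and -37.0 for WT. Over all probe sets RUNX2/MYC replicate 1 correlated with its own replicates at 0.987 and 0.986, and with the WT arrays at 0.987 to 0.990. These 2 arrays, RUNX2/MYC replicate 1 and WT replicate 3, are called intermediate below, and values without them, an alternative chosen after seeing the data, are given beside the results. Without them limma called 15.3% of all genes higher and 20.7% lower. The number of arrays limits the precision of every value.

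Runx2, the transgene's own gene and the bone regulator of the family, had the largest difference of the 7 genes. Its log2 signal was 11.73, 11.78 and 11.96 on RUNX2/MYC replicates 1 to 3, against 7.94, 7.94 and 7.93 on WT replicates 1 to 3. All 3 RUNX2/MYC arrays, the intermediate one included, stood far above all 3 WT arrays, which differed from each other by less than the RUNX2/MYC arrays did. The means were 11.82 ± 0.12 in RUNX2/MYC and 7.94 ± 0.0026 in WT (SD, n = 3 each), a log2 fold change of 3.89 (standard error, SE, 0.093) and a 14.8-fold higher signal. It was 3.93 without both intermediate arrays, and under the 16 other settings tried the log2 fold change was 3.74 to 3.97. The probe set was not checked for which transcripts it reads, so message of the CD2 transgene and message of the mouse's own Runx2 gene cannot be told apart in this value.

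Runx1, which is needed for the emergence of blood stem cells and for early thymocytes, was lower in RUNX2/MYC thymus. Its log2 signal was 10.01, 10.43 and 10.20 on RUNX2/MYC replicates 1 to 3, against 11.08, 11.38 and 11.24 on WT replicates 1 to 3. The groups did not overlap, and both intermediate arrays lay with their own group. The means were 10.22 ± 0.21 in RUNX2/MYC and 11.23 ± 0.15 in WT (SD, n = 3 each), and Runx1 fell by 1.02 on the log2 scale (SE 0.14, 95% confidence interval -1.34 to -0.70), a 2.02-fold higher signal in WT. The adjusted p was 0.0234 (limma, Benjamini-Hochberg over all probe sets), so Runx1 passed the threshold of 0.05. Without both intermediate arrays the log2 fold change was -0.91 (limma, adjusted p = 0.0169), in a fit where 20.7% of all genes were called lower. The call ended, with the direction kept, when 1 of the other 4 arrays was left out, at -1.12 for RUNX2/MYC replicate 2 left out (adjusted p = 0.087), -1.01 for RUNX2/MYC replicate 3 (0.114), -1.09 for WT replicate 1 (0.0773) and -0.94 for WT replicate 2 (0.133). In those 4 fits at most 4 of all probe sets were called higher and 0 lower. The study's analysis of variance, here and below, means a rerun of that test on the deposited values and not the study's own output. In it Runx1 had an adjusted p of 0.0953 with Benjamini-Hochberg adjustment, and with q values 0.0467.

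Runx3, the family member of CD8 T cells and natural killer cells, had the higher signal in RUNX2/MYC. Its log2 signal was 9.73, 9.53 and 9.68 on RUNX2/MYC replicates 1 to 3, against 9.10, 9.03 and 9.28 on WT replicates 1 to 3. The groups did not overlap, and WT replicate 3, an intermediate array, was the highest of the WT arrays. The means were 9.65 ± 0.11 in RUNX2/MYC and 9.14 ± 0.13 in WT (SD, n = 3 each), a log2 fold change of 0.51 (SE 0.10, 95% confidence interval 0.26 to 0.76). The adjusted p of 0.0661 (limma) missed the threshold. It passed without both intermediate arrays, at a log2 fold change of 0.54 (limma, adjusted p = 0.0202), where 15.3% of all genes were called higher. Over all settings the Runx3 log2 fold change was 0.37 to 0.59 with an adjusted p of 0.0085 to 0.287. The order within a group ran opposite in Runx1 and Runx3 on several arrays. RUNX2/MYC replicate 1 had the lowest Runx1 and the highest Runx3 of its group, and RUNX2/MYC replicate 2 the highest Runx1 and the lowest Runx3, as did WT replicate 2 in the WT group.

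Cbfb, the common partner, differed between the groups by less than the spread of its arrays. Its log2 signal was 10.67, 10.84 and 10.82 on RUNX2/MYC replicates 1 to 3, against 10.55, 10.70 and 10.81 on WT replicates 1 to 3. The groups overlapped, since WT replicate 3 stood above RUNX2/MYC replicate 1. The means were 10.78 ± 0.094 in RUNX2/MYC and 10.69 ± 0.13 in WT (SD, n = 3 each), with a log2 fold change of 0.090 (SE 0.10, limma, adjusted p = 0.595). The 95% confidence interval of the difference was -0.16 to 0.33. The sign of the Cbfb value turned under quantile normalization, 75th percentile centring and cyclic loess, and without both intermediate arrays the log2 fold change was 0.20 (adjusted p = 0.141).

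**Figure D2:**
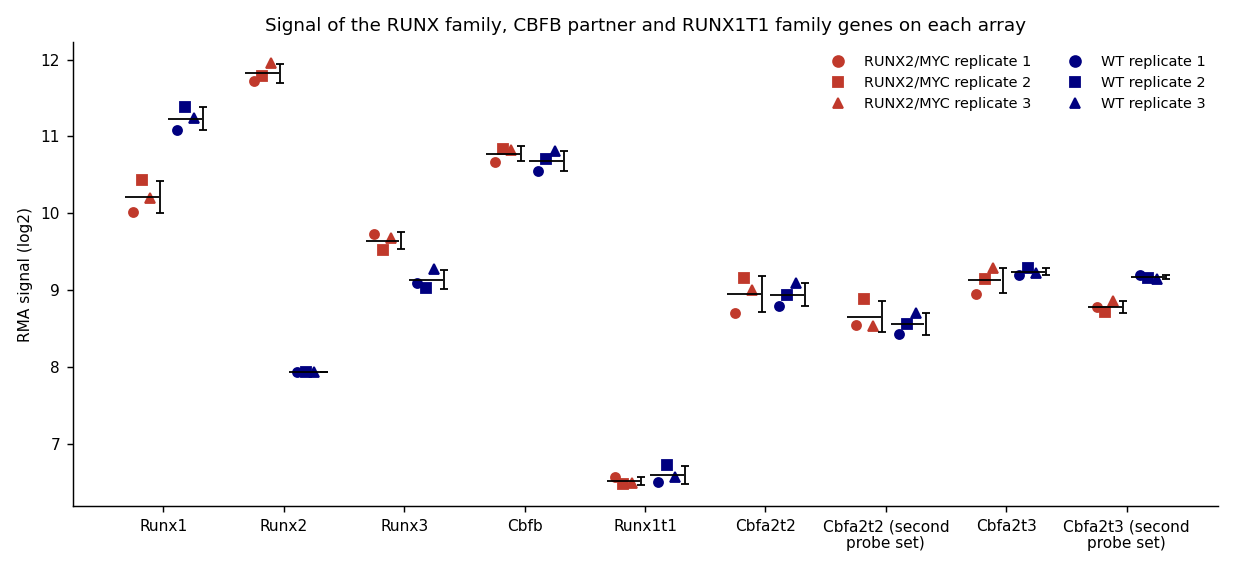
RMA log2 signal of the 9 probe sets of the 7 genes on each of the 6 arrays, RUNX2/MYC in red and WT in blue, with the shape of a point giving the replicate. Horizontal lines are group means and vertical bars their SD (n = 3). Runx2 stood at 11.73 to 11.96 in RUNX2/MYC and 7.93 to 7.94 in WT, Runx1 was lower and Runx3 higher on every RUNX2/MYC array than on any WT array, and the levels of different probe sets are not comparable with each other.

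The corepressor genes of the RUNX1T1 family were measured on 5 probe sets, of which limma called 0. At an unadjusted p under 0.05 there was 1 of the 5, where 21.3% of all probe sets passed, and this was the dimmer probe set of Cbfa2t3, which the study's analysis of variance called too with q values (0.0344) and not with Benjamini-Hochberg adjustment. Runx1t1 was dim on every array, at 6.57, 6.48 and 6.48 on RUNX2/MYC replicates 1 to 3, against 6.50, 6.72 and 6.56 on WT replicates 1 to 3, all below the array medians. Its log2 fold change was -0.083 (SE 0.094, limma, adjusted p = 0.586), and its sign turned under quantile normalization, median centring and cyclic loess. Runx1t1 was at -0.13 without both intermediate arrays (adjusted p = 0.355).

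Cbfa2t2, also known as Mtgr1, was read by 2 probe sets that both overlapped between the groups. The brighter, 10477543, had 8.70, 9.16 and 9.00 on RUNX2/MYC replicates 1 to 3, against 8.80, 8.94 and 9.09 on WT replicates 1 to 3. Its log2 fold change was 0.012 (SE 0.14, 95% confidence interval -0.33 to 0.35, limma, adjusted p = 0.963). The dimmer, 10521982, had 8.54, 8.88 and 8.53 on RUNX2/MYC replicates 1 to 3, against 8.42, 8.55 and 8.70 on WT replicates 1 to 3, a log2 fold change of 0.094 (SE 0.13, adjusted p = 0.661). RUNX2/MYC replicate 2 was the highest of the 6 arrays on both Cbfa2t2 probe sets. The brighter was at 0.21 (adjusted p = 0.159) and the dimmer at 0.22 (adjusted p = 0.264) without both intermediate arrays.

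Cbfa2t3, also known as Eto2, a repressor best studied in red cell and megakaryocyte development, was read by 2 probe sets, of which 1 overlapped between the groups. The brighter, 10582429, had 8.95, 9.15 and 9.28 on RUNX2/MYC replicates 1 to 3, against 9.20, 9.29 and 9.22 on WT replicates 1 to 3, which overlapped. Its log2 fold change was -0.11 (SE 0.11, 95% confidence interval -0.36 to 0.14, limma, adjusted p = 0.532). The dimmer, 10582427, had 8.78, 8.71 and 8.86 on RUNX2/MYC replicates 1 to 3, against 9.19, 9.16 and 9.15 on WT replicates 1 to 3, and all RUNX2/MYC arrays lay below all WT arrays. Its log2 fold change was -0.39 (SE 0.083, 95% confidence interval -0.58 to -0.19, adjusted p = 0.0743), which missed the threshold. Without both intermediate arrays it was -0.39 with an adjusted p of 0.0333, in a fit where 20.7% of all genes were called lower. The brighter Cbfa2t3 probe set was at -0.029 there with an adjusted p of 0.821.

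**Figure D3:**
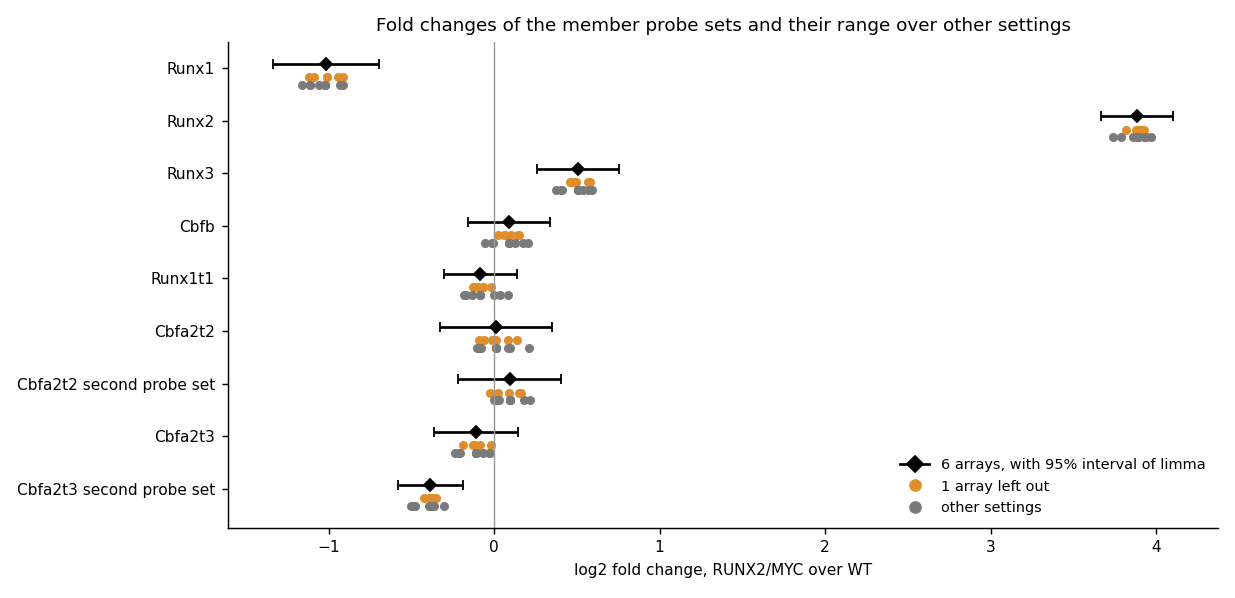
Log2 fold changes of RUNX2/MYC over WT for the 9 probe sets. Black diamonds and bars are the values from all 6 arrays with the 95% confidence interval of limma, orange points are the fits with 1 array left out, and grey points the other settings. Runx2 lay at 3.74 to 3.97 and Runx1 at -1.16 to -0.91 under every setting, while the points of Cbfb, Runx1t1 and Cbfa2t2 fell on both sides of 0.

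Of the 6 members other than Runx2, on their brightest probe sets, 1 (Runx1) was called lower and 0 higher by limma, where 2.36% of the 19938 genes were called in either direction, 2.27% higher and 0.0953% lower. Runx3 was the 1 member with a higher signal at an unadjusted p under 0.05, a level at which 13.2% of all genes were higher and 8.01% lower, and the study's analysis of variance called 0 members higher. The counts were 1 of 6 lower and 1 of 6 higher (Runx3) when asked which groups did not overlap, where 11.2% of all genes lay wholly lower and 15.5% wholly higher. The median log2 fold change of all genes was -0.065.

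Whole thymus was measured, so fewer cells of a type and less RNA per cell cannot be told apart in any of these values, and lists of marker genes were read on the same arrays beside them. Limma called 2.27% of all genes higher and 0.0953% lower. Of 8 measured markers of mature single-positive thymocytes it called 3 higher in RUNX2/MYC and 0 lower, and the list median was 0.61 in log2 fold change. The study's analysis of variance called 0 of them with Benjamini-Hochberg adjustment and 3 higher with q values, Nkg7 not among these. Their mean log2 signal was 9.54 to 9.62 on the RUNX2/MYC arrays and 8.90 to 9.18 on the WT arrays. The called genes were Ms4a6b, a T cell membrane protein (1.20, adjusted p = 0.0188), Itgb7, the integrin chain of gut homing (1.09, adjusted p = 0.0145), and Nkg7, a cytotoxic granule protein (0.89, adjusted p = 0.0402). Of the 8 markers 2 lay below 0, Il7r at -0.28 (adjusted p = 0.317 from limma) and Ccr7 at -0.015 (0.865). The markers of earlier thymocytes ran below WT in their means. Of 12 double-negative markers 1 was called lower, Il2ra (CD25) at -0.79 (adjusted p = 0.0328), with a mean signal of 8.04 to 8.14 in RUNX2/MYC and 8.32 to 8.39 in WT. The analysis of variance called 0 of the double-negative markers with Benjamini-Hochberg adjustment and 1 lower with q values, which was not Il2ra. Of 9 double-positive markers 0 were called by limma (5 lower at an unadjusted p under 0.05, against 8.01% of all genes, and 0 by the study's analysis of variance), with a mean signal of 10.87 to 11.29 in RUNX2/MYC and 11.33 to 11.51 in WT. Limma called 6 single-positive markers higher, 4 double-negative markers lower and 1 double-positive marker lower without both intermediate arrays. In that fit 15.3% of all genes were called higher and 20.7% lower.

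Markers of the stroma were read in the same way. All 11 thymic epithelium genes measured lay below 0 in log2 fold change, at a median of -0.24 and a mean signal of 9.14 to 9.24 in RUNX2/MYC and 9.43 to 9.51 in WT. None of the epithelial genes was called by limma. At an unadjusted p under 0.05, 5 were lower, against 8.01% of all genes. The study's analysis of variance called 2 epithelial genes lower with q values and 1 with Benjamini-Hochberg adjustment. Without both intermediate arrays limma called 3 of the 11 lower, where 20.7% of all genes were. Genes of 2 other kinds of cell were highest on single arrays. RUNX2/MYC replicate 1 was the highest array for 5 of 7 genes of erythroid cells and megakaryocytes (7.31 to 7.99 in RUNX2/MYC and 7.18 to 7.51 in WT in mean signal), and RUNX2/MYC replicate 2 was the highest for 7 of 8 adipocyte genes (6.95 to 8.44 in RUNX2/MYC and 6.72 to 7.18 in WT). The markers of natural killer cells, in which Runx3 also acts, had a mean signal of 6.94 to 7.03 in RUNX2/MYC and 6.94 to 6.99 in WT. The median log2 fold changes were -0.17 for mesenchyme, -0.02 for endothelium, -0.22 for B cells and -0.18 for dendritic cells and macrophages. In the same order 10 of 11, 6 of 8, 6 of 6 and 7 of 9 genes lay below 0. In these 7 lists limma called 0 genes, as did the study's analysis of variance, and at an unadjusted p under 0.05 there were 3 for dendritic cells and macrophages, 2 for natural killer cells, 1 each for mesenchyme and the erythroid list and 0 in the rest. Without both intermediate arrays limma called 3 genes lower on the erythroid list and 3 on that of dendritic cells and macrophages. It called 1 lower each for B cells, adipocytes and natural killer cells, and 0 for mesenchyme and endothelium. Of all genes 20.7% were called lower in that fit. No marker is at 0, since the RMA scale has no 0. The part of these cells in the results on Runx1, Runx3 and the other members was not tested.

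**Figure D4:**
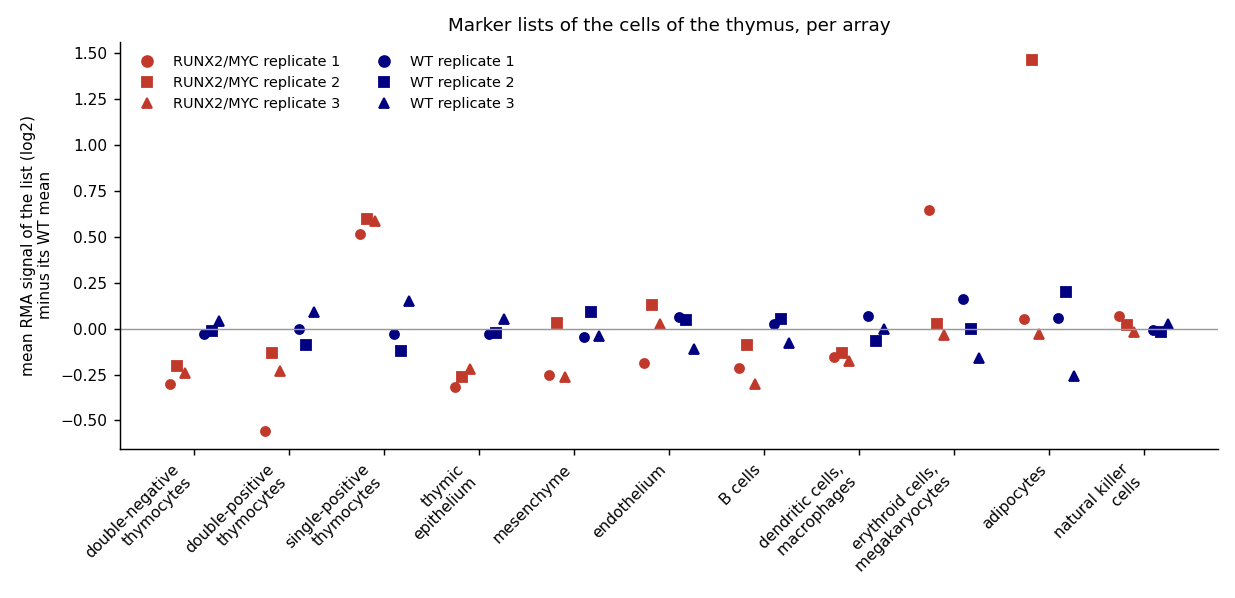
Mean RMA log2 signal of 11 lists of marker genes on each array, minus the mean of that list over the WT arrays, with RUNX2/MYC in red and WT in blue. The single-positive list stood higher on all 3 RUNX2/MYC arrays than on any WT array. The double-negative, double-positive, epithelial and B cell lists and that of dendritic cells and macrophages stood lower. The adipocyte list stood apart on RUNX2/MYC replicate 2.

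Genes of the proteins that RUNX works through were read next, where limma called 2.27% of all genes higher and 0.0953% lower. Among 11 measured corepressor genes 1 was called higher and 0 lower, with a median log2 fold change of 0.14. The called gene was Tle1, a Groucho corepressor that binds RUNX proteins. It had a log2 signal of 7.16, 7.33 and 7.30 on RUNX2/MYC replicates 1 to 3, against 6.79, 6.77 and 6.72 on WT replicates 1 to 3. Tle1 was dim, below the array median on all WT arrays, and was among the probe sets that the filter on dim ones left out. Every RUNX2/MYC array was above every WT array, and the log2 fold change was 0.50 (SE 0.088, limma, adjusted p = 0.0446). The corepressor genes next in size did not pass, with Sin3b at 0.22, the deacetylase gene Hdac3 at 0.20, Tle4 at 0.20 and Hdac4 at 0.16 (adjusted p of 0.238 to 0.501). The corepressor calls were 3 higher and 0 lower without both intermediate arrays, where 15.3% of all genes were called higher.

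Among 11 measured coactivators and modifying enzymes 1 was called higher and 0 lower by limma, where 2.27% of all genes were called higher. The list median was -0.089. The called gene was Prmt1, an arginine methyltransferase known to methylate RUNX1. It had 9.85, 9.84 and 9.73 on RUNX2/MYC replicates 1 to 3, against 9.30, 9.22 and 9.32 on WT replicates 1 to 3. The groups did not overlap, and the log2 fold change was 0.53 (SE 0.084, limma, adjusted p = 0.0351). Wwtr1 (TAZ), a coactivator of RUNX2 in bone, was at -0.30 (adjusted p = 0.153), Prmt6 at 0.28 (0.209), the cell cycle kinase gene Cdk6 at 0.23 (0.276) and the histone methyltransferase gene Kmt2a at -0.15 (0.606). In this list 1 gene was called higher and 1 lower without both intermediate arrays, against 15.3% and 20.7% of all genes. Of 12 DNA-binding partners 0 were called in either direction by limma, 0 at an unadjusted p under 0.05 and 0 by the study's analysis of variance, with a median of -0.072. The largest values there were Gata1, the erythroid factor, at -0.25, Lef1 at -0.15, Jun at 0.14 and Cebpb at -0.13 (adjusted p of 0.359 to 0.428). Among the partner genes 1 was called lower and 0 higher without both intermediate arrays, against 20.7% and 15.3% of all genes.

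Genes known as targets of RUNX proteins were read in 2 lists. Of the skeletal targets of RUNX2 limma called 0 of 10 measured in either direction, and their median log2 fold change was -0.23. Bglap, Bglap2 and Spp1 were also on that list but were not measured here. At an unadjusted p under 0.05, 4 of the 10 were lower and 0 higher, where 8.01% of all genes were lower, and the study's analysis of variance called 0. These 4 were Col10a1 of growth plate cartilage (-0.35), Sp7, the osteoblast factor osterix (-0.34), the type I collagen gene Col1a1 (-0.31) and Tnfsf11, the osteoclast cytokine RANKL (-0.25), with an adjusted p of 0.182 to 0.224. Col10a1 and Sp7 were dim, below the median of every array. Without both intermediate arrays 4 skeletal targets were called lower, where 20.7% of all genes were. Alpl, the bone alkaline phosphatase, singled out after its values were seen, had 9.45, 7.50 and 7.92 on RUNX2/MYC replicates 1 to 3, against 8.43, 8.01 and 7.84 on WT replicates 1 to 3. Its RUNX2/MYC replicate 1 stood above all other arrays, and the groups overlapped.

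Of 18 measured targets in blood cells 1 was called higher and 0 lower by limma, where 2.27% of all genes were called higher. The list median was -0.13. The called gene was Itgae, the integrin chain CD103 of CD8 T cells, whose expression is known to need RUNX3. It had 9.31, 9.13 and 9.47 on RUNX2/MYC replicates 1 to 3, against 7.72, 7.85 and 8.03 on WT replicates 1 to 3. All RUNX2/MYC arrays were above all WT arrays, and Itgae had a log2 fold change of 1.44 (SE 0.13, limma, adjusted p = 0.0140). Cd4, which RUNX proteins silence, had 10.80, 11.47 and 11.25 on RUNX2/MYC replicates 1 to 3, against 11.82, 11.87 and 12.07 on WT replicates 1 to 3. The Cd4 groups did not overlap either, with RUNX2/MYC replicate 1 the lowest of all, but the log2 fold change of -0.74 (SE 0.18, adjusted p = 0.091) missed the threshold. Cd8a, also singled out after its values were seen, was at 0.10 (adjusted p = 0.735), and its WT arrays, from 11.90 to 12.63, spanned the RUNX2/MYC arrays. Rag1, a recombinase gene, was at -0.62 (adjusted p = 0.0963), the granzyme gene Gzmb at -0.46 (0.0996) and Ifng at -0.28 (0.258). Gzmb and Ifng were dim, below the median of every array. Of the blood cell targets 1 was called higher and 2 lower without both intermediate arrays, against 15.3% and 20.7% of all genes. Cd4, Cd8a and Rag1 are also on the list of double-positive markers above, and Col1a1 on that of mesenchyme.

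The calls of the list genes ended in the same fits as that of Runx1, as did nearly all calls of the series. Of the 7 list genes called, markers included, 0 were called when replicate 2 or 3 of RUNX2/MYC, or replicate 1 or 2 of WT, was left out. Of all probe sets at most 4 were called higher and 0 lower there, against 596 and 45 with all 6 arrays. The directions were kept in those 4 fits, with log2 fold changes of 1.35 to 1.52 for Itgae (adjusted p of 0.0696 to 0.11), 0.50 to 0.57 for Prmt1 (0.123 to 0.207) and 0.47 to 0.52 for Tle1 (0.14 to 0.22). They were 1.03 to 1.09 for Itgb7 (0.0707 to 0.11), 1.10 to 1.21 for Ms4a6b (0.0825 to 0.115), 0.73 to 0.96 for Nkg7 (0.103 to 0.157) and -0.87 to -0.75 for Il2ra (0.0841 to 0.168). Without WT replicate 3 the adjusted p was 0.0764 for Tle1 and 0.0545 for Prmt1, and without RUNX2/MYC replicate 1 it was 0.0508 for Nkg7. Without both intermediate arrays all 7 were called by limma, with an adjusted p of 0.00735 to 0.0208. In that fit 15.3% of all genes were called higher and 20.7% lower. The 7 had been picked because the fit of all arrays called them.

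By the study's analysis of variance with Benjamini-Hochberg adjustment 0 of the 7 were called, with an adjusted p of 0.0543 for Prmt1, 0.0564 for Itgae, 0.0639 for Itgb7, 0.0703 for Tle1, 0.0882 for Ms4a6b, 0.106 for Il2ra and 0.133 for Nkg7. With that adjustment 162 of all 35556 probe sets were called higher and 33 lower. With q values Il2ra (0.0518) and Nkg7 (0.0652) missed the threshold and the other 5 passed. Of all probe sets 890 were called higher and 156 lower with q values. Scaling also ended calls. Prmt1 missed under quantile normalization (adjusted p = 0.0772 from limma), 75th percentile centring (0.121) and cyclic loess (0.0934), as did Nkg7 (0.0654, 0.0758 and 0.0781 in the same order). Tle1 missed under 75th percentile centring (0.128) and Il2ra under median centring (0.0561).

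**Figure D5:**
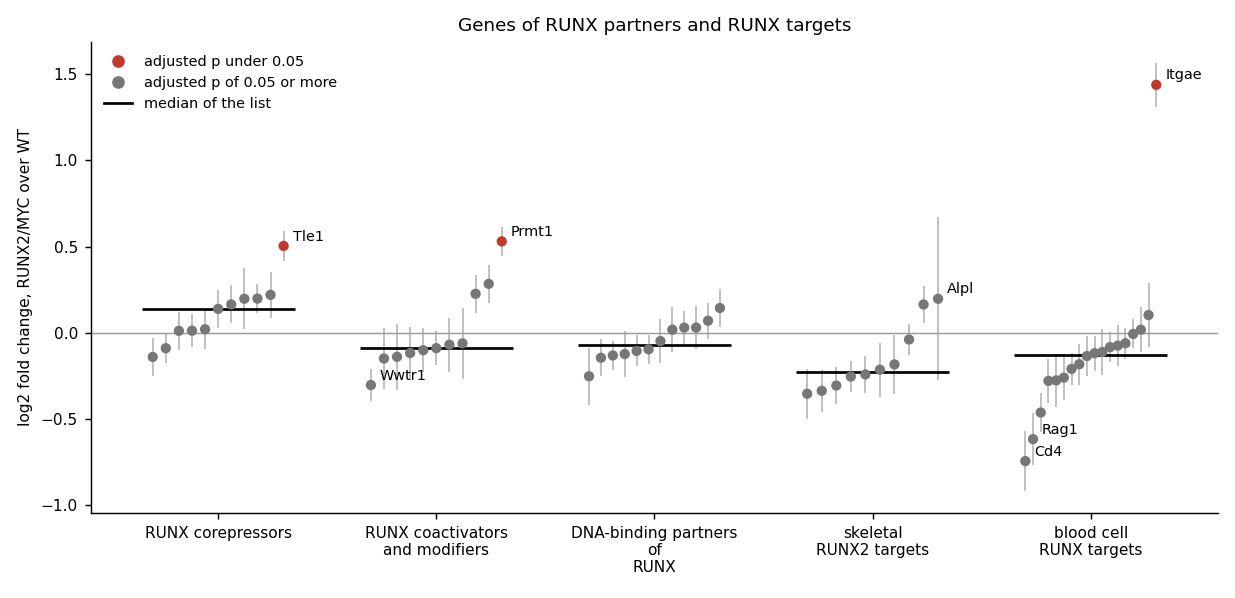
Log2 fold changes of RUNX2/MYC over WT (points) with their standard errors (bars) for the measured genes of 5 lists, ordered by size within each list. Red points passed an adjusted p of 0.05 (Tle1, Prmt1 and Itgae) and black lines are the list medians, from -0.23 for skeletal targets to 0.14 for corepressors.

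The genes whose signals ran most like those of a RUNX gene were named by the Pearson correlation over the 6 arrays, among genes with an SD of at least 0.25. The points are 2 groups of 3 arrays, so a gene that separates the groups has a high correlation with Runx1, Runx2 or Runx3 by that alone, and the values are a description. Nearest to Runx1 were Tmem176b, the actin-binding calponin gene Cnn3, the keratin gene Krt8, which is on the epithelial list, Tnfrsf8 (CD30) and Alox12e, at 0.972 to 0.979. Most opposed to Runx1 were Cyth4, Prr5, Pdlim4, Rpp38 and Rsl1d1, at -0.998 to -0.989. Nearest to Runx2 were Scrn1, the initiation factor gene Eif2b3, the sialyltransferase gene St6galnac4, Asns, which makes asparagine, and Smyd5, at 0.998 to 0.999. Most opposed to Runx2 were Bbs7, Alox15, the chemokine gene Ccl19, S100a11 and Akr1c18, at -0.992 to -0.984.

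Nearest to Runx3 were Gm6607, Atp10d, the mitochondrial DNA-binding protein gene Ssbp1, Carm1, an arginine methyltransferase, and Fkbp3, at 0.985 to 0.992. Runx1 itself, at -0.958, was among the 5 genes most opposed to Runx3, with H2-Bl, Lgals9, Lipg and Bbs7 at -0.962 to -0.953. For Cbfb, which did not separate the groups, the nearest genes were the mitotic kinesin gene Kif20b, Cr1l, Washc4, Snord85 and Ccdc88a, at 0.995 to 0.998. None of these 5 differed between the groups by the test (adjusted p of 0.404 to 0.518 from limma). Most opposed to Cbfb were the odorant receptor genes Olfr657, Olfr1449 and Olfr1222, the serotonin receptor gene Htr5a and Hspb7, at -0.992 to -0.987. Of the members themselves Runx2 correlated with Runx3 at 0.94 and with Runx1 at -0.96, and Cbfb with Runx1, Runx2 and Runx3 at -0.24, 0.45 and 0.44. The highest value of Cbfb with another member was 0.83, with Cbfa2t2. Cbfb itself had an SD below the minimum of 0.25 set for the ranked genes. Its signal was highest on RUNX2/MYC replicate 2 (10.84) and lowest on WT replicate 1 (10.55). The 75th percentile of all signals was also highest and lowest on these arrays, at 9.04 and 8.85. The part of such array differences in the correlations of Cbfb was not tested.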

How the data were processed

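Thymus RNA of 3 RUNX2/MYC and 3 WT mice was hybridised to Affymetrix MoGene arrays. The authors deposited log2 signals per probe set. Per the submitters' processing notes these came from RMA (background correction, quantile normalization and summary of probes) in Affymetrix Expression Console 1.4. The study's methods instead give Partek Genomics Suite and a correction for GC content ahead of RMA. The deposited values were used unchanged. The number of arrays limits the precision. Of 35556 probe sets the annotation pairs 21789 with 1 symbol, 1621 with several and 12146 with none. All probe sets were fitted with limma 3.58.1 (R 4.3.3) on all 6 arrays, with Benjamini-Hochberg adjustment and a threshold of 0.05, and tables were made with pandas 2.3.3 and numpy 2.4.6 (Python 3.11.15) and figures with matplotlib 3.10.9. The fit was tested on simulated data.

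Members, gene lists and tests were chosen with earlier results of these data known. Named are all members, each list gene that passed, up to 4 more of each RUNX list by size, and the 5 most alike and 5 most opposed genes of Runx1, Runx2, Runx3 and Cbfb. Some listed genes are not reported here. Alternatives were a replicate block, leaving out arrays, other scalings, a filter on dim probe sets, array weights and the study's analysis of variance, rerun on the deposited values. With q values that rerun called 890 probe sets higher and 156 lower, fewer in both directions than the study reported. Promoter sequences are RefSeq's (GRCm38.p6); Runx1t1 had no entry. P-values measure only the spread between these arrays.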

Additional observations from a re-analysis of the deposited data

How the results depend on the processing

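All probe sets gave 596 higher and 45 lower calls, and 1 of the 6 members other than Runx2 was called. The higher calls numbered 1247 with dim probe sets left out, 915 under median centring, 209 under 75th percentile centring, 5766 with limma's array weights, 162 by the study's analysis of variance with Benjamini-Hochberg adjustment and 5035 without both intermediate arrays. The lower calls were 145 with dim probe sets left out, 98 under quantile normalization, 124 under cyclic loess, 7318 with array weights, 156 by the analysis of variance with q values and 7192 without both intermediate arrays. Leaving out 1 array gave 3 to 872 higher calls, 0 to 718 lower ones and 0 to 1 member, with the members' 0 in the 4 fits named beside Runx1. The members called were 2 (Runx1 and Runx3) under median centring, with dim probe sets left out, with array weights and without both intermediate arrays, and 0 by the analysis of variance with Benjamini-Hochberg adjustment. Without both intermediate arrays 15.3% of all genes were called higher and 20.7% lower. With array weights the 5766 higher and 7318 lower calls were out of 35556 probe sets. The probe sets kept when dim ones were left out had a median log2 fold change of 0.065, against -0.051 over all probe sets. The causes were not tested.

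With the replicate number as a block the calls were 1654 higher, 763 lower and 2 members, Runx3 being the added one (adjusted p = 0.0356). Deviations of arrays with the same number correlated at 0.50, -0.15 and 0.61, and neither array of number 2 correlated best with its namesake, so the numbers were not taken to pair the mice.

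Runx1, Runx2, Runx3 and both Cbfa2t3 probe sets kept their direction under all 16 settings. Cbfb turned to -0.0157 under quantile normalization, -0.00691 under 75th percentile centring and -0.0553 under cyclic loess. Runx1t1 turned to 0.0368 under quantile normalization, 0.000748 under median centring and 0.0836 under cyclic loess. Cbfa2t2 turned to -0.0816 under quantile normalization, -0.0844 under 75th percentile centring and -0.101 under cyclic loess, and ran from -0.0923 to 0.14 with 1 array left out. Its dimmer probe set turned to -0.00299 under 75th percentile centring and ran from -0.0222 to 0.163 with 1 array left out. The dimmer Cbfa2t3 probe set passed with dim probe sets left out (adjusted p = 0.039), array weights (0.0144) and the analysis of variance with q values (0.0344).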

Other observations

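Promoter windows were at hand for 372 of the 452 genes called higher, 16 of the 19 called lower and 15614 of all 19938 genes measured. A RUNX motif (TGTGGT or TGCGGT on either strand) stood in 28.5% of the windows of genes called higher and in 5 of the 16 windows of genes called lower (31.2%), where 24.2% of all windows held one. An E-box (CACGTG) stood in 18.5% of the windows of genes called higher and in 4 of the 16 of genes called lower, where 9.5% of all windows held one. These shares are descriptions with no test. Olfr24, the gene outside the family with a pair of RUNX motifs like that of Runx1, Runx2 and Runx3, was at -0.34 in log2 fold change (limma, adjusted p = 0.354).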
